A study of Mus musculus with 6 samples.

Results

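The 8 genes described here, Irf1, Irf2, Irf3, Irf4, Irf5, Irf7, Irf8 and Irf9, encode interferon regulatory factors, and they were chosen by name as members of that family. They were represented by 14 probe sets, each annotated to a single member, among 45037 probe sets for 18192 genes. All 8 genes were tested, since no filter on dim signals was used. Lineage-negative (Lin-) haematopoietic progenitors of the C57BL/6J background, carrying the Rosa26rtTA transactivator in both groups, were cultured in S3F11 medium, which holds interleukin-3 at 20 ng/ml and stem cell factor, interleukin-11 and Flt3 ligand at 50 ng/ml each. The EGFP-positive group (3 arrays) is given by its titles and source names as transduced with the lentiviral construct pRRL.TET.EVI1.IRES.EGFP, from which the transactivator, once doxycycline is bound, drives EVI1 (the DNA-binding zinc finger protein of the Mecom locus) and the green marker EGFP. The EGFP-negative group (3 arrays) is labelled as untransduced, whereas the design text describes sorting of negative or low and of highly EGFP-expressing cells 20 hours after doxycycline (1 µg/ml) was given. The description field calls the EGFP-positive samples untransduced too, against their source names. The groups follow the titles, and whether the EGFP-negative cells had met the vector or doxycycline is not settled by the labels. Age and sex of the mice are not given, and no label ties replicates to separate mice or cultures. The p-values therefore cover the spread among these 6 samples alone, which may be technical.

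Interferon regulatory factors share a tryptophan-rich DNA-binding domain that recognises GAAA repeats, the core of the interferon-stimulated response element. IRF3 and IRF7 are activated downstream of nucleic acid sensors and switch on the interferon genes, and IRF5 acts behind Toll-like receptors on inflammatory cytokine genes. IRF9 joins STAT2 in the complex ISGF3, which carries the signal of the type I interferon receptor to its target genes, whereas IRF1 and IRF2 bind the same elements as an activator and, mostly, a repressor. IRF4 and IRF8 are largely restricted to blood cells, often bind composite sites with the ETS factors PU.1 and SPIB, and direct lymphoid, dendritic and monocytic fates. In mice, loss of IRF8 in myeloid progenitors favours granulocytes over monocytes and dendritic cells.

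The bases before the start sites of Irf1, Irf2 and Irf8 are shown because, of the 8 members, only these 3 held a searched motif in a RefSeq promoter window (GRCm38.p6, 250 bases before to 50 after the annotated start, 11 windows for the 8 genes). The 250 bases before the first start of each gene are printed 5' to 3', and capitals mark the matches.

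Irf1 chr11:53769764-53770013, plus strand: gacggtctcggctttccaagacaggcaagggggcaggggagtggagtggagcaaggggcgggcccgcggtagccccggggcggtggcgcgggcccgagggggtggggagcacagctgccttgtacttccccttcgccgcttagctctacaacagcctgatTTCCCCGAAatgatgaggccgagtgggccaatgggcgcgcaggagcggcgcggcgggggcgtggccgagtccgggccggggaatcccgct

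Irf8 chr8:120736108-120736357, plus strand: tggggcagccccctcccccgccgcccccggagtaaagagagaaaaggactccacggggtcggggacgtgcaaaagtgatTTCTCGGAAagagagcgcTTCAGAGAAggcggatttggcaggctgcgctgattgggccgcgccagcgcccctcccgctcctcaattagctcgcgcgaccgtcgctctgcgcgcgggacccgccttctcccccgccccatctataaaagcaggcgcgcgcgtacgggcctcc

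Irf2 chr8:46739495-46739744, plus strand: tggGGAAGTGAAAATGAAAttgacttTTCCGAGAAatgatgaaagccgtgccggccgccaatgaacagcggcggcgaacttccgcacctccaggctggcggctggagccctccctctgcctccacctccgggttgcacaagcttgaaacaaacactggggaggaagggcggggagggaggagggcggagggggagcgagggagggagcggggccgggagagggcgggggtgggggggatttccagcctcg

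3 motifs were searched on both strands: the response element core GAAANNGAAA, the STAT-binding gamma-activated site TTCNNNGAA, which reads the same on both strands, and the ETS-IRF composite GGAANNGAAA. The core and the composite share a GAAA and may overlap. Irf1 held TTCCCCGAA at 90 to 82 bases before its start, and Irf8 held TTCTCGGAA at 171 to 163 and TTCAGAGAA at 153 to 145 bases before it. Irf2 held a core (GAAAATGAAA), a composite (GGAAGTGAAA) that overlaps it, and TTCCGAGAA. TTCNNNGAA was thus present in 3 of the 8 members, against 9.55% of all 27025 genes with a window, GAAANNGAAA in 1 of 8 (3.99% of all genes) and GGAANNGAAA in 1 of 8 (3.16%). These matches describe letters only. The genes with a gamma-activated site did not move one way, since Irf1 and Irf2 rose and Irf8 fell.

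The log2 expression values of all probe sets had medians between 5.11 and 5.14 on the 6 arrays, and Pearson's r across probe sets was at least 0.989 within groups and at most 0.969 between them. The brightest probe set of Mecom read 8.26 ± 0.091 (SD, n = 3) without and 7.97 ± 0.20 with EGFP (log2 difference -0.29, limma adjusted p = 0.13, or -0.41 with adjusted p = 0.033 without EGFP-positive replicate 1). Whether that probe set matches the EVI1 sequence of the vector is not known here, so it does not check the labels. The log2 excess of 3' over 5' signal, which reflects RNA quality and amplification, differed between the groups. It was 0.80 ± 0.049 (SD, n = 3) for Actb and 0.82 ± 0.019 for Gapdh without EGFP, and 1.00 ± 0.032 and 1.06 ± 0.036 with it. Its part in the differences below was not tested. Of 14 measured markers of progenitors, the labelled cell type, 6 fell and 1 rose, beside 17.2% lower and 16.0% higher over all genes. Of the 14, 0 lay on all 6 arrays under the background ceiling of 3.61, the highest value of any bacterial control probe set. Neutrophil, monocyte, mast cell and megakaryocyte lists had 0 such markers as well, so signal above the ceiling does not tell progenitors from these cells.

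Expression of the family split in EGFP-positive cells. At the brightest probe set of each gene, 4 of the 8 members were higher (Irf1, Irf9, Irf7 and Irf2), 2 were lower (Irf8 and Irf4), and Irf3 and Irf5 did not pass the threshold, an adjusted p of 0.05 (limma, Benjamini-Hochberg over all 18192 genes). Over all genes 33.2% passed, 16.0% higher and 17.2% lower, so a call alone is common in this comparison. The median log2 difference of the 8 members was 0.13 and that of all genes 0.02. In 7 of the 8 members the 3 EGFP-positive arrays did not overlap the 3 EGFP-negative arrays, which was also the case for 48.2% of all genes.

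**Figure D1:**
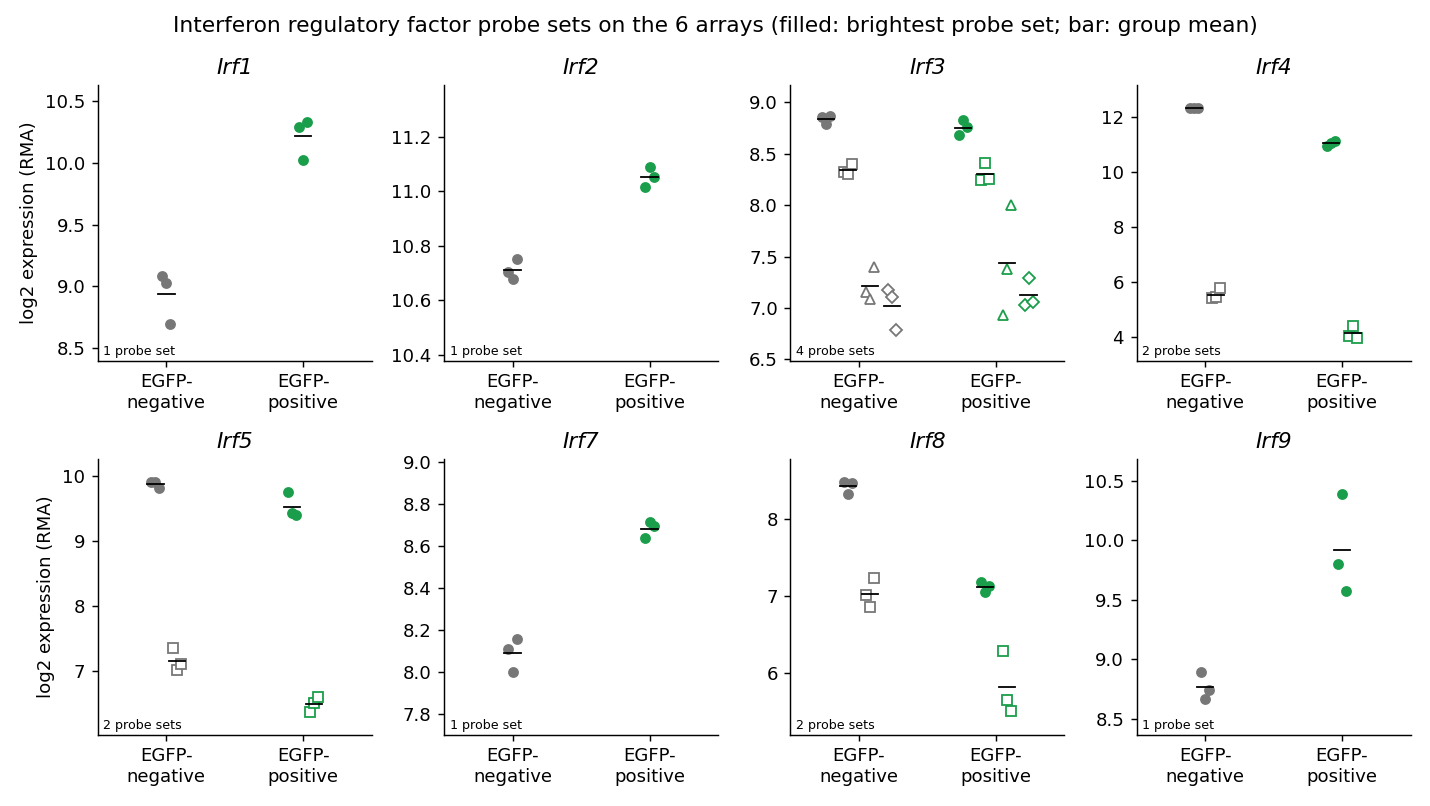
Log2 expression (RMA) of the 14 interferon regulatory factor probe sets on each of the 6 arrays, with a panel and a scale for each gene. Points are arrays, grey for EGFP-negative and green for EGFP-positive, filled for the brightest probe set of a gene, and bars are group means of 3 arrays. Irf1, Irf2, Irf7 and Irf9 sit higher and Irf4 and Irf8 lower in EGFP-positive arrays, while the groups overlap at all 4 probe sets of Irf3.

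Irf1, an activator that interferon-gamma can induce, read 9.09, 9.03 and 8.70 on the EGFP-negative arrays and 10.29, 10.02 and 10.33 on the EGFP-positive arrays. The lowest EGFP-positive array lay above the highest EGFP-negative one. The rise was 2.42-fold (log2 difference 1.28, SE 0.14, 95% interval 0.93 to 1.63, limma adjusted p = 0.00105). Its single probe set, 1448436_a_at, is of a type that matches several transcripts of the same gene.

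Irf9, the DNA-binding subunit of ISGF3, read 8.90, 8.67 and 8.74 without EGFP and 9.80, 10.39 and 9.58 with EGFP. EGFP-positive replicate 2 stood above the other two, and all 3 lay above the EGFP-negative arrays. The difference of 1.15 (SE 0.21, 95% interval 0.64 to 1.67, limma adjusted p = 0.00773) is a 2.23-fold rise, and its interval was the widest among the brightest probe sets of the 8 members. Without that array the difference was 0.92, and the call held.

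Irf7, the interferon-inducible factor that amplifies interferon-alpha production, rose less. It read 8.11, 8.001 and 8.16 without EGFP and 8.64, 8.72 and 8.69 with EGFP, with no overlap. The difference was 0.59, or 1.51-fold (SE 0.082, 95% interval 0.40 to 0.79, limma adjusted p = 0.00241).

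Irf2, which mostly opposes IRF1 at shared sites, had the smallest called difference of the family. Its values were 10.70, 10.68 and 10.75 without EGFP and 11.01, 11.09 and 11.05 with EGFP, a 1.27-fold rise (0.34, SE 0.075, 95% interval 0.16 to 0.52, limma adjusted p = 0.0155). The arrays did not overlap, but the call was lost without EGFP-negative replicate 1 (0.34, adjusted p = 0.061) or without EGFP-negative replicate 2 (0.32, adjusted p = 0.066). The suffix of its probe set, 1418265_s_at, marks probes that can also bind transcripts of other genes.

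Irf8, the monocyte and dendritic cell factor, fell by 1.30 on the log2 scale, a 2.47-fold lower level. Its brightest probe set read 8.48, 8.32 and 8.47 without EGFP and 7.17, 7.05 and 7.13 with EGFP, with more than a log2 unit between the nearest arrays of the groups (SE 0.087, 95% interval -1.51 to -1.09, limma adjusted p = 0.000146). The other probe set, 1448452_at, read 7.01, 6.85 and 7.23 and then 6.29, 5.65 and 5.50. It too was lower on every EGFP-positive array, by 1.22 (adjusted p = 0.00987 over all probe sets).

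Irf4, the factor of lymphocytes and dendritic cells, fell by nearly the same amount. The brightest probe set read 12.30, 12.31 and 12.30 in EGFP-negative arrays, a spread of 0.0070 (SD, n = 3), and 10.93, 11.03 and 11.12 in EGFP-positive arrays. This was a 2.43-fold lower level (-1.28, SE 0.083, 95% interval -1.48 to -1.08, limma adjusted p = 0.000135). At 1421174_at, the other probe set, from the same transcript accession, the values went from 5.41, 5.44 and 5.76 to 4.05, 4.41 and 3.97, a difference of -1.40 (adjusted p = 0.00152 over all probe sets). Both probe sets of Irf4 and both of Irf8 therefore moved downward past the threshold.

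Irf5 was lower at both of its probe sets, but only 1460231_at passed. At 1449678_at, which represents the gene, the values were 9.90, 9.91 and 9.81 without EGFP and 9.75, 9.43 and 9.39 with EGFP. The arrays did not overlap, yet EGFP-positive replicate 1 lay close to the EGFP-negative range, and the difference of -0.35 (95% interval -0.63 to -0.063) had an adjusted p of 0.0663 over genes. Without that array it was -0.46 with an adjusted p of 0.0159 (limma). At 1460231_at, which read 7.35, 7.02 and 7.10 and then 6.37, 6.50 and 6.59, the difference was -0.67 (adjusted p = 0.0104 over all probe sets, limma).

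Irf3, the widely expressed partner of IRF7, did not pass at any of its 4 probe sets, and its groups overlapped at each. The brightest, 1426111_x_at, of a type whose probes can bind unrelated transcripts, read 8.86, 8.79 and 8.87 without EGFP and 8.68, 8.83 and 8.76 with EGFP (-0.08, 95% interval -0.28 to 0.11, limma adjusted p = 0.486). The interval holds no change of more than 0.28 in either direction. The other probe sets differed by -0.04 (1416898_a_at), 0.22 (1435271_at) and 0.10 (1438721_a_at), with adjusted p from 0.623 to 0.826 over all probe sets. On 1435271_at the EGFP-positive arrays spread from 6.93 to 7.998, and without EGFP-positive replicate 3 the difference turned to -0.06. On 1438721_a_at it turned to -0.01 without EGFP-negative replicate 3.

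Over the 14 probe sets, 4 rose and 5 fell (24.1% of all probe sets passed), and no gene had probe sets past the threshold in opposite directions. In this fit the rise of Irf2 was lost without any 1 of the 6 arrays (adjusted p from 0.058 to 0.116, limma).

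**Figure D2:**
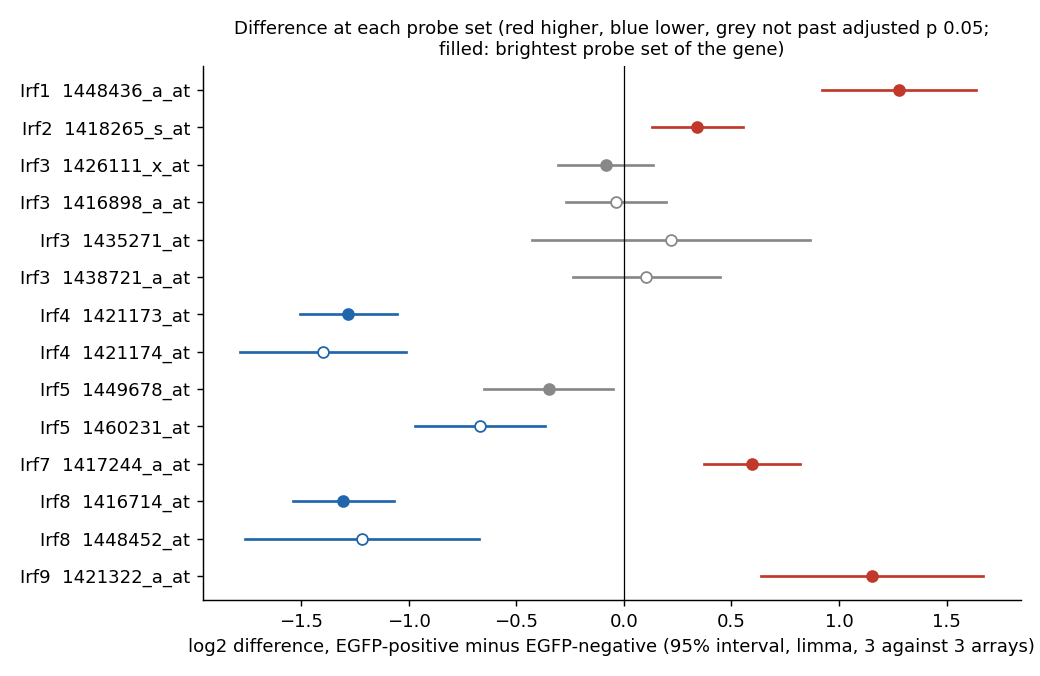
Log2 difference, EGFP-positive minus EGFP-negative, at each of the 14 probe sets, with 95% intervals from limma over all probe sets (3 against 3 arrays). Red marks probe sets called higher, blue lower and grey those that did not pass, and filled points are the brightest probe set of a gene. Both probe sets of Irf4 and of Irf8 lie near -1.3, and all 4 intervals of Irf3 include 0.

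The interferon genes themselves gave no call, neither the type I genes, outputs of IRF3 and IRF7, nor the type II gene Ifng. Of 19 listed ligand genes 10 were measured, of which 0 passed the adjusted threshold (limma) and 0 had an unadjusted p under 0.05. On all 6 arrays 7 of the 10 lay under the ceiling of 3.61, Ifnb1 among them (2.38 ± 0.33 and 2.57 ± 0.33, SD, n = 3), so a change at these levels was not detectable. Ifnz and Ifna1 were above it on all 6 arrays. Ifnz read 7.42 ± 0.064 and 7.56 ± 0.20, and Ifna1 read 4.08 ± 0.073 and 3.93 ± 0.20.

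Genes that act upstream of IRF3, IRF5 and IRF7 were more often higher than lower. Of 25 measured sensors, adaptors and kinases, 13 rose and 2 fell, beside 16.0% higher and 17.2% lower over all genes. The median difference of the list was 0.30. Tlr3, the endosomal receptor for double-stranded RNA, read 5.79, 5.68 and 5.75 without EGFP and 8.13, 8.27 and 8.31 with EGFP, a 5.64-fold rise (limma adjusted p = 2.4e-05). Ddx58, which encodes the cytosolic RNA sensor RIG-I, rose 3.54-fold (8.06 ± 0.075 to 9.88 ± 0.14, n = 3, adjusted p = 9.0e-05). In 16 alternative fits the log2 difference ranged from 1.60 to 2.55 for Tlr3 and from 1.45 to 1.91 for Ddx58. Both kept their calls. Tlr7, the receptor for single-stranded RNA that signals to IRF5 and IRF7, went the other way, from 7.69, 7.41 and 7.36 to 5.53, 5.02 and 5.58, a 4.31-fold lower level (adjusted p = 0.00036). Ifi204, a DNA-binding interferon-inducible gene, was at least 1.16-fold lower, with all 3 EGFP-positive arrays under the ceiling. EGFP-negative replicate 2 (3.56) lay under it too, and the EGFP-negative mean was 3.82, so this fall lies near the floor.

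Among receptors and the JAK-STAT relay, 7 of 15 measured genes rose and 3 fell, with a median of 0.32, beside 16.0% higher and 17.2% lower over all genes. Stat2, the partner of IRF9 in ISGF3, rose 3.00-fold, from 7.34, 7.46 and 7.65 to 9.19, 9.03 and 8.996 (limma adjusted p = 0.00018), and Ifnar1, a chain of the type I interferon receptor, rose 1.42-fold (adjusted p = 0.0069). The feedback inhibitor genes Socs3 and Socs1 fell by 1.04 and 0.35 (adjusted p = 0.00038 and 0.019). This count rested on single arrays: 4 rose and 1 fell without EGFP-negative replicate 1 or without EGFP-negative replicate 2, and 1 fell without EGFP-negative replicate 3. The call of Socs1 was lost without any of these 3 arrays, with adjusted p from 0.054 to 0.075.

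Most type I interferon response genes, many of them targets of ISGF3, rose. Of 40 measured type I interferon response genes, 35 rose and 1 fell, beside 16.0% higher and 17.2% lower over all genes. The median was 1.08 against 0.02 over all genes, and 33 of 38 rose when Irf7 and Irf9 were left out of the list. Rsad2, which encodes the antiviral enzyme viperin, read 8.43, 8.26 and 8.41 without EGFP and 12.39, 12.33 and 12.29 with EGFP, a 15.6-fold rise. Oasl2, of the oligoadenylate synthetase family, rose 7.43-fold (5.01 ± 0.066 to 7.91 ± 0.042, n = 3), and both had a limma adjusted p of 1.5e-05. Ifitm1, a membrane protein that restricts virus entry, fell by 0.40 (13.17 ± 0.043 to 12.77 ± 0.020, adjusted p = 0.0079). The 4 genes that did not pass were Ifi35 (0.44), Eif2ak2 (0.20), Isg20 (0.09) and Mx2 (-0.13, under the ceiling on all arrays), named after their values were seen. Most of the list thus rose, while the genes for the factors themselves rose by 0.59 (Irf7) and 1.15 (Irf9). The lists share genes, so some rises are counted more than once. Ddx58, Dhx58 and Ifih1 are also among the upstream genes above, and Stat2 and Usp18 among the JAK-STAT genes.

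**Figure D3:**
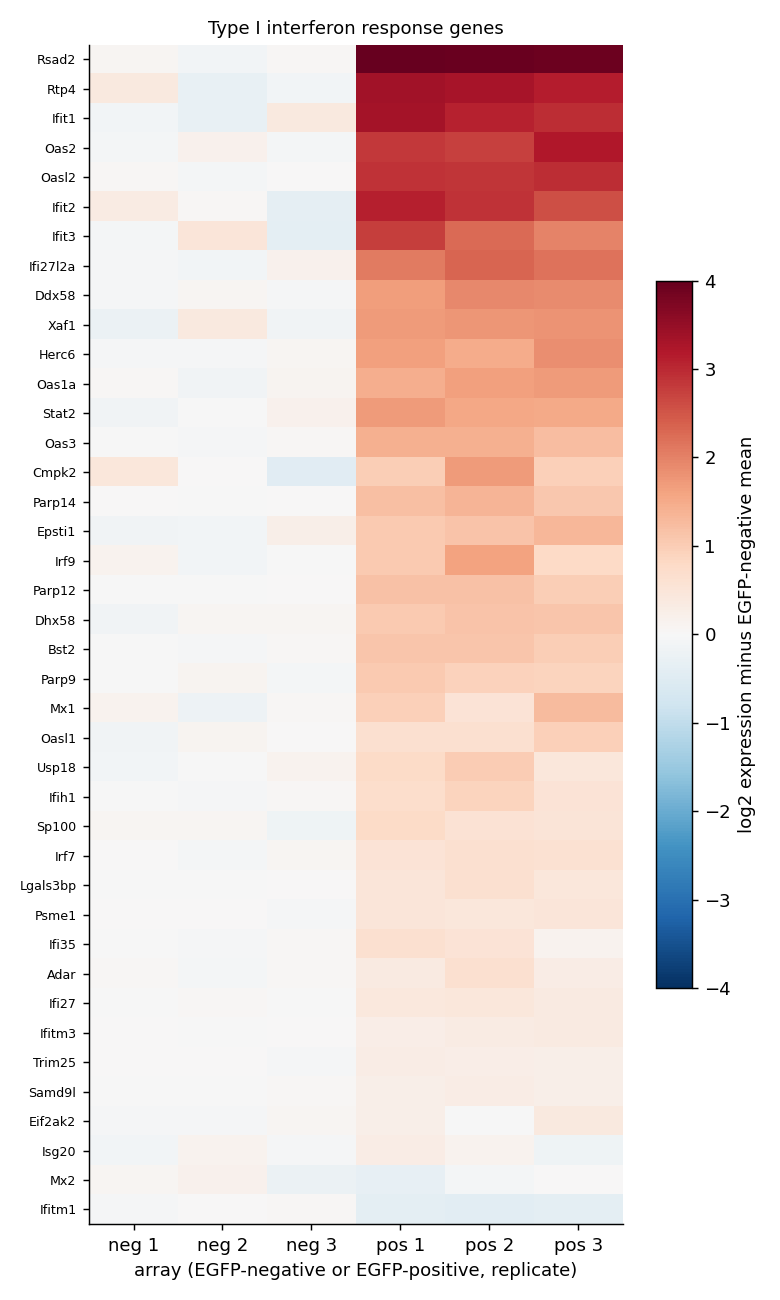
Log2 expression of the 40 measured type I interferon response genes on each array, minus the mean of the 3 EGFP-negative arrays, in order of the mean difference (colour scale from -4 to 4). Rsad2 stands at the top and Ifitm1 at the bottom, and the 3 EGFP-positive columns resemble each other for most genes.

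The response element core that these factors bind was found in the promoter windows of 12 of the 28 response genes that had a window (42.9%, against 3.99% of all genes). A stretch around it is shown for Rsad2, the gene of this list with the largest difference, and for Ifit1, Oas3 and Stat2, other members of the list with a core before the start. The capitals mark the core, written GAAANNGAAA or, on the opposite strand, TTTCNNTTTC.

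Rsad2 chr12:26456548-26456587, minus strand: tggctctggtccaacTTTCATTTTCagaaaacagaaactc

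Ifit1 chr19:34640770-34640809, plus strand: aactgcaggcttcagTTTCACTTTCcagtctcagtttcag

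Oas3 chr5:120777710-120777749, minus strand: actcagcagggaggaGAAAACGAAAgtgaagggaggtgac

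Stat2 chr10:128270261-128270300, plus strand: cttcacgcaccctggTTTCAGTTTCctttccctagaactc

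The first base of the match lay 120, 104, 75 and 222 bases before the start of Rsad2, Ifit1, Oas3 and Stat2. Among the 12 response genes with a core, 11 rose and the median difference was 1.47 (range 0.20 to 3.97). Among the 16 with a window but no core, 13 rose with a median of 0.68 (range -0.40 to 2.89). Both sets thus consisted mostly of genes that rose, beside 16.0% of all genes, and their ranges overlap.

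Targets of interferon-gamma and IRF1, listed together with antigen presentation genes, had calls in both directions. Of 33 measured, 13 rose and 8 fell (median 0.19), again beside 16.0% and 17.2%. Il15, a cytokine gene activated by IRF1, rose 3.97-fold, from 5.96, 6.02 and 6.01 to 7.92, 8.21 and 7.84 (limma adjusted p = 9.9e-05), and Iigp1, an immunity-related GTPase, rose at least 3.12-fold from under the ceiling. The GTPase genes measured in this list (Gbp2, Gbp3, Gbp6, Gbp7, Irgm1, Irgm2, Igtp and Iigp1) were all called higher. The falls included the class II antigen presentation genes H2-Eb1 (11.26 ± 0.041 to 10.22 ± 0.058, a fall by 1.04, adjusted p = 0.00022) and H2-Aa (-0.92, adjusted p = 0.00056). The other falls were H2-Ab1, Ciita, Cybb, Cd274, Psmb8 and Ido1. Without EGFP-negative replicate 1 or 2 the number that fell was 4, and without EGFP-negative replicate 3 or EGFP-positive replicate 1 it was 5, while 13 rose in each case. The promoter windows of these genes held GAAANNGAAA in 9 of the 23 genes that had a window (39.1%, against 3.99% of all genes).

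Partners of IRF4 and IRF8, together with genes that depend on IRF8 in myeloid cells, had calls in both directions. Of 27 measured, 7 rose and 7 fell (median -0.12), beside 16.0% higher and 17.2% lower over all genes, and 11 fell with the trend option of eBayes. Spib, an ETS factor that binds composite sites with IRF4 and IRF8, rose 5.94-fold (9.69, 9.54 and 9.58 to 12.24, 12.15 and 12.14, limma adjusted p = 2.2e-05). Bcl6, a repressor gene of lymphoid and dendritic cells, rose 4.97-fold (9.31 ± 0.14 to 11.62 ± 0.084, n = 3, adjusted p = 4.0e-05). Id2, needed for several dendritic and innate lymphoid fates, fell from 11.13, 11.15 and 11.18 to 8.88, 9.20 and 8.60, a 4.77-fold lower level (adjusted p = 0.00017), and Ly86, which encodes the Toll-like receptor cofactor MD-1, was at least 3.89-fold lower.

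**Figure D4:**
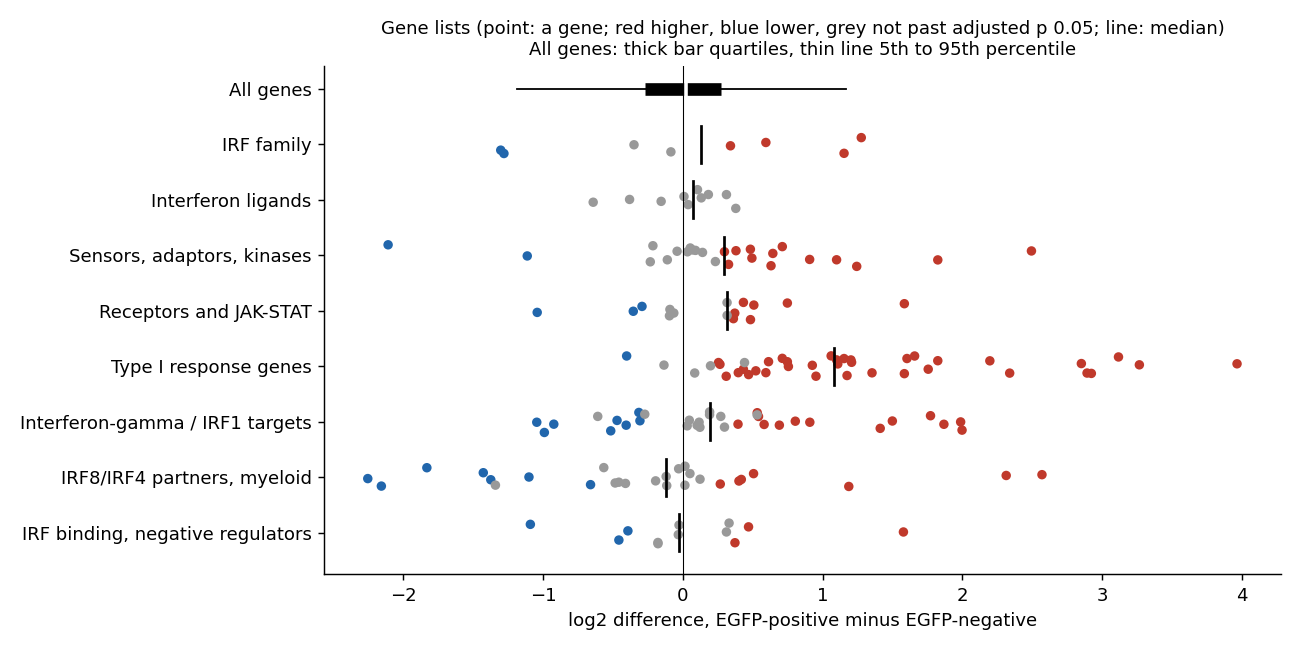
Log2 difference, EGFP-positive minus EGFP-negative, of every measured gene in 8 lists of the interferon regulatory pathway. Points are genes, red called higher, blue lower and grey not past an adjusted p of 0.05, vertical lines are list medians, and the bar for all genes gives quartiles with a thin line from the 5th to the 95th percentile. The type I response list has its median at 1.08, while the family itself lies on both sides of 0.

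Beside the falls of Irf8 and Irf4, markers of some lineages were lower, among them monocytes, conventional dendritic cells and granulocytes, while those of other lineages were not. The marker lists share genes with each other and with the lists above, so some calls are counted more than once. Flt3 is in the conventional dendritic and progenitor lists, and Csf1r, Batf3 and H2-Aa are in lists above. In sorted bulk RNA, fewer cells of a type and less RNA per cell cannot be told apart. The marker counts below stand beside 16.0% of all genes called higher and 17.2% called lower. Of 8 measured monocyte and macrophage markers, 5 fell and 2 rose, and the mean log2 level of the list, its sum divided by 8, went from 8.11 to 8.15 on EGFP-negative arrays to 6.99 to 7.21 on EGFP-positive arrays, with 0 of them under the ceiling on all arrays. Of 9 conventional dendritic cell markers, 5 fell and 1 rose (6.60 to 6.71 and 5.87 to 6.09), and Xcr1 and Cd209a of this list lay under the ceiling on all 6 arrays. Of 7 plasmacytoid dendritic cell markers 2 rose and 3 fell (6.99 to 7.06 and 7.07 to 7.12), but 1 of those 3, Klra17, lay under the ceiling on all 6 arrays, where a change is not measurable. Of 9 B cell markers 1 rose and 1 fell (3.90 to 4.05 and 3.84 to 3.95), and Pax5, Rag1 and Rag2 lay under the ceiling throughout. The part of these cell types in the falls of Irf8 and Irf4 was not tested.

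Markers of granulocytes were lower as well, and those of erythroid cells and megakaryocytes mostly higher. The same shares of all genes, 16.0% higher and 17.2% lower, stand beside these counts. Of 10 neutrophil and granulocyte markers 9 fell and 1 rose (mean log2 level 11.14 to 11.26 and 8.98 to 9.05), of 7 mast cell and basophil markers 6 fell (10.89 to 10.90 and 8.82 to 8.90), and of 5 eosinophil markers 4 fell (6.60 to 6.72 and 4.11 to 4.70, with Ccr3 under the ceiling). Of 7 erythroid markers 5 rose and 1 fell (5.97 to 6.21 and 7.59 to 7.70, with Hba-a1 under the ceiling), and of 7 megakaryocyte markers 4 rose and 1 fell (7.40 to 7.46 and 7.97 to 8.16). T and NK cell markers gave 2 falls of 8 (4.26 to 4.46 and 3.82 to 4.07, with Cd3g and Ncr1 under the ceiling), and progenitor markers 6 falls and 1 rise of 14 (9.54 to 9.58 and 8.87 to 9.11).

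**Figure D5:**
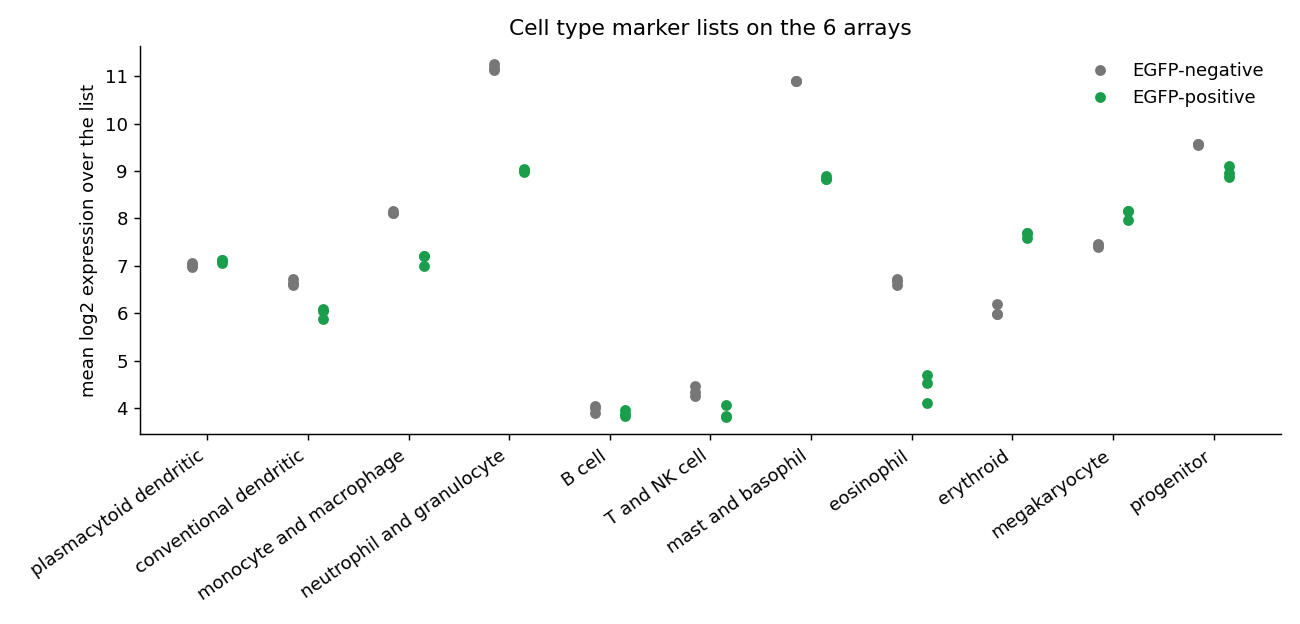
Mean log2 expression over each of 11 cell type marker lists on each array, grey for EGFP-negative and green for EGFP-positive, 3 points each. The lists hold different probe sets, so only the 2 groups within a list can be set side by side. Monocyte, conventional dendritic, neutrophil, mast and eosinophil lists lie lower in EGFP-positive arrays, and erythroid and megakaryocyte lists higher.

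Among 9095 brighter genes, those most like Irf4 over the 6 arrays by Pearson's r were Fcgr3 (r = 1.00), Slc41a2 and Tfdp1, and those most like Irf1 were Plin3 (r = 0.999), Rras and Fech. With 2 groups, r mainly reflects the difference between them: 340 genes had an r above 0.99 with Irf4 and 48 with Irf1. Fcgr3, a low-affinity antibody receptor of myeloid cells, went from 11.66 ± 0.059 (SD, n = 3) to 8.50 ± 0.23, and Plin3, a lipid droplet protein gene, from 9.49 ± 0.11 to 10.34 ± 0.095.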

How the data were processed

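Gene expression was measured in 6 RNA samples on 6 Affymetrix arrays. The values used are the authors' log2 signals of single probe sets, as deposited and made with RMA per the submitters' processing notes (version not given in the sources used here). RMA corrects background, quantile-normalizes and summarises probes, so a change in total RNA per cell cannot be read from the values. Per the labels' protocols, RNA was amplified with a 3' kit. Scanner files were not used here.

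Of 45101 probe sets, 64 controls were left out. GEO's platform annotation gave 1 gene for 34945, several for 932 and none in the table used here for 9160. Symbols were checked by Entrez identifier (34741 found, 0 changed), and 1 symbol with several identifiers was left out. A gene was represented by its brightest probe set over the 6 arrays. Groups came from sample titles. The comparison used lmFit and eBayes of limma 3.58.1 under R 4.3.3 (all 6 arrays, no covariate, two-sided, Benjamini-Hochberg over 18192 genes or 45037 probe sets). Signals under the highest of 27 bacterial control probe sets were raised to that ceiling for folds, which are then lower bounds. The fit was tested on simulated data.

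The members and lists were chosen with earlier results of these data known, so list counts are descriptions without a set test. Named genes were the members, from each list the called genes of smallest p, up to 2 in each direction, and the 3 genes most like the called member with the smallest p in each direction, others being chosen after their values were seen. Listed genes without a probe set of their own were not analysed here. Arrays carry no read depth, and 3 per group limit the precision. Replicate numbers did not pair the samples: same-numbered arrays had correlations of deviations between -0.011 and 0.012. Promoters are RefSeq windows of GRCm38.p6, and no build is named for the array values.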

Additional observations from a re-analysis of the deposited data

How the results depend on the processing

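16 alternatives were run for each member. They were a replicate block, quantile normalization or median shifts on top of RMA, only brighter genes or those above the ceiling, eBayes with trend or robust options, array weights, another choice of probe set (the mean or the most variable) and leaving out each of 6 arrays. Irf1, Irf4, Irf7, Irf8 and Irf9 kept their direction and call under all 16, with the highest adjusted p at 0.033 for Irf9. Not all 16 could turn a direction. The block, the subsets of genes and the eBayes options change the p-value and leave the difference as it was. Irf1, Irf2, Irf7 and Irf9 have 1 probe set each, so the choice of probe set left their differences as they were too. Irf2 was not called with the replicate block (0.34, adjusted p = 0.062), and without single arrays it ranged from 0.32 to 0.36. Irf5 passed with brighter genes only, genes above the ceiling or eBayes trend (-0.35 in each), with its probe sets averaged (-0.51) and with the most variable (-0.67), and it ranged from -0.46 to -0.28 without single arrays. Irf3, which was not called, turned to 0.050 when its probe sets were averaged and 0.22 with the most variable. Without single arrays its probe set 1435271_at ranged from -0.063 to 0.47 and 1438721_a_at from -0.014 to 0.18. Mecom turned to 0.13 with its most variable probe set, uncalled.

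The count of called genes, 6045, ranged from 4432 to 6839. Among receptor and JAK-STAT genes the replicate block gave 4 rises and 1 fall, and without single arrays there were 4 to 7 rises and 1 to 2 falls. Interferon-gamma and IRF1 targets with antigen presentation genes had 4 falls with the most variable probe set and 4 to 8 without single arrays. IRF8 and IRF4 partners had 11 falls with eBayes trend. IRF binding proteins and negative regulators had 5 rises and 1 fall with brighter genes only, 1 fall with the block, and 1 to 3 falls without single arrays. The other counts stayed within 1.5 times. Some of these fits held fewer genes or arrays, and the causes of the shifts in counts were not tested.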

Other observations

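Genes for proteins that bind or restrain the interferon regulatory factors had calls in both directions. Of 12 measured, 3 rose, 3 fell and 6 did not pass (limma adjusted p under 0.05, median log2 difference -0.03), beside 16.0% higher and 17.2% lower over all genes. Irf2bpl, named for its likeness to IRF2 binding proteins, went from 9.78, 9.81 and 9.47 without EGFP to 11.21, 11.30 and 11.28 with it, a 2.99-fold rise (adjusted p = 0.00020). Otud5, a deubiquitinase that acts on the adaptor TRAF3, rose 1.30-fold (adjusted p = 0.0097). Nlrx1, a mitochondrial protein that dampens MAVS signalling, fell by 1.09 (6.39 ± 0.10 to 5.30 ± 0.28, n = 3, adjusted p = 0.0026), and Irf2bp1, an IRF2 corepressor gene, fell by 0.39 (adjusted p = 0.025). Without any 1 of the EGFP-negative arrays only 1 gene of the list fell, and the adjusted p of Irf2bp1 was 0.073 to 0.081.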
